A study of Mus musculus with 6 samples.

Results

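Layer 1 of the cortex, the cell-poor sheet beneath the pia, was followed through 9 genes that mark its resident neurons or that were set beside them. Ndnf, Lamp5, Reln and Id2 are carried by neurogliaform and related interneurons, and Trp73, Lhx1, Lhx5 and Calb2, together with Reln, by Cajal-Retzius cells; Scube1 completes the group. The genes were chosen by measured values: Scube1 and Ndnf had ranks 1 and 3 by p-value among all genes when tau mice were compared with controls, both lower in tau, and the layer 1 markers were added to them. All 9 were among the 53640 gene symbols shared by the tables. Of these, 7 passed the filter on low counts that left 20694 genes, and Lhx1 and Lhx5 did not. Values of the 9 genes for tau against control are therefore a description, without a test.

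RNA was sequenced from PFC tissue of mice aged 6 months, in 2 libraries for each of 3 groups, which the labels call biological duplicates. Treated tau mice were PS19(P301S) mice given WDR5-0103, a small molecule that blocks WDR5, a shared component of histone H3K4 methyltransferases. Tau mice were PS19(P301S) mice given vehicle, and control mice were of C57BL/6 x C3H genotype and also received vehicle. PS19 mice express human mutant tau from a prion protein promoter, and all 4 PS19 libraries share it, so the compound was seen on that background alone. Its dose and the length of treatment were not found in the labels. In whole tissue, fewer cells of a type and less RNA per cell cannot be told apart.

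Neurogliaform cells are interneurons that release GABA diffusely onto neighbouring dendrites, and Ndnf marks many of those in layer 1. Cajal-Retzius cells are early-born neurons that secrete reelin, the protein of Reln, which binds the receptors Vldlr and Lrp8, acts through the adaptor Dab1 and directs neurons to their layers; most of these cells are lost in the weeks after birth. In the adult cortex Reln is made mainly by interneurons. Outside the cortex, mitral cells of the olfactory bulb express Reln, and local interneurons of the bulb express Calb2.

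The promoters of the genes differed in their content of CG dinucleotides, around which H3K4 trimethylation is concentrated in mammals. Windows of 250 bases before the transcript start were taken from RefSeq on GRCm38.p6, in which Scube1, Reln, Lamp5, Trp73, Lhx1 and Id2 matched (6 of the 9 genes), and Ndnf, Lhx5 and Calb2 did not. Those of Scube1, Reln and Lamp5 are shown because the 3 genes had different patterns over the libraries and their windows differ widely in CG content; capitals mark each CG. They lie at chr15:83725040-83725289 (minus strand), chr5:22344706-22344955 (minus strand) and chr2:136052089-136052338 (plus strand).
Scube1: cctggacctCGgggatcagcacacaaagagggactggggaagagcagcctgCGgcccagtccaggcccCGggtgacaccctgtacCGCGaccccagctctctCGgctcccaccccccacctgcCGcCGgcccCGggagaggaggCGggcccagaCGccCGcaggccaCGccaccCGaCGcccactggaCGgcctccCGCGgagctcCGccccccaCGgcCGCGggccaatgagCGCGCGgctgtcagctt
Reln: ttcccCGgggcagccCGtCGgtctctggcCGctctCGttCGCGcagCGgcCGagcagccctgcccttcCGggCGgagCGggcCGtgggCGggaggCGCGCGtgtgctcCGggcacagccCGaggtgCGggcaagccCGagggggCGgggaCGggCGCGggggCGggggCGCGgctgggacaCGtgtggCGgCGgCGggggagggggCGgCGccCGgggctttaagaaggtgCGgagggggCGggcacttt
Lamp5: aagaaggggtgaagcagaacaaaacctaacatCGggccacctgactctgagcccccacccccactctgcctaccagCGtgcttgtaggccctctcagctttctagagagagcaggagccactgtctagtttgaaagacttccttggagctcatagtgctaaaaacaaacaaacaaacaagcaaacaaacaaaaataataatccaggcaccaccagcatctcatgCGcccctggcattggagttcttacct
The Scube1 window held 25 CG, a number reached by 10.7% of all 32851 windows in the table. The Reln window held 37, reached by 2.2%, and the Lamp5 window 3, reached by 71%, beside a median of 6. Among the other windows, that of Id2 held 18 and that of Lhx1 held 26, those of Trp73 held 6 and 31, and another window of Lamp5 held 1. The motif GGGCGG, searched on both strands, was present in the windows of Scube1, Reln and Id2 and in 1 of those of Trp73, and in 32.7% of all windows. The motif TATAAA, searched on both strands, was in none of the 8 windows and in 12.4% of all.

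Total counts ranged from 17690811 to 34774643 per library, so that 3 counts, the limit that a count of 0 allows, corresponded to between 0.0877 and 0.172 CPM (read counts scaled to library size; counting error only). Slc17a7, the vesicular glutamate transporter of cortical excitatory neurons, lay between 891.4 and 1005 CPM in every library. By Xist and the Y-linked Ddx3y, both treated tau libraries and the library labelled control 1 came from males (Xist at most 2.43 CPM). Both tau libraries and control 2 came from females (Xist at least 186 CPM), so treatment and sex cannot be told apart between treated tau and tau. Treated tau counts also came with 54134 symbols per library and those of tau and control with 54429. Any difference in counting therefore cannot be told apart from treatment either. Prnp, whose promoter drives the transgene, was at 1472 to 1876 CPM in the 4 PS19 libraries and at 876 CPM in control 2; the library labelled control 1, at 1654 CPM, went against its label. The same library held olfactory bulb markers, and the library tau 2 was highest in striatal markers, with a sum of 406 CPM beside 184 to 245 CPM in the others, and in oligodendrocyte markers, with 5812 CPM beside 1541 to 3102 CPM. Several fold changes that rest on either library are given with and without it, and list counts and medians with all 6 libraries alone.

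Ndnf encodes a secreted neurotrophic protein and lies on chromosome 6 (65671590 to 65712326, plus strand, mm10). It stood at 29.4 and 27.0 CPM in treated tau, beside 22.6 and 18.7 CPM in tau, against 39.8 CPM for the library labelled control 1 and 37.8 CPM for control 2. No groups overlapped: both tau libraries were lowest, both treated tau libraries lay between, and both control libraries were highest. Means were 20.6 ± 2.74 CPM in tau and 38.8 ± 1.41 CPM in control (SD, n = 2 per group), with a log2 fold change of -0.90 ± 0.12 (SE). Without the library labelled control 1 it was -0.86 ± 0.15, and without tau 2 it was -0.78. Over the 6 ways of leaving out 1 library it ranged from -1.05 to -0.78.

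Scube1, a secreted and membrane-bound protein with EGF-like repeats (chromosome 15, 83604999 to 83725021, minus strand), had the same order. It had 69.6 and 66.0 CPM in treated tau, beside 47.8 and 49.5 CPM in tau, against 77.3 CPM for the library labelled control 1 and 88.5 CPM for control 2. Again no groups overlapped, with tau lowest and control highest. Means were 48.7 ± 1.19 CPM in tau and 82.9 ± 7.89 CPM in control (SD, n = 2 per group), with a log2 fold change of -0.77 ± 0.10 (SE). It was -0.86 ± 0.11 without the library labelled control 1, and ranged from -0.86 to -0.67 over the 6 ways of leaving out 1 library. With the library labelled control 1 and tau 2 both left out (a setting chosen after seeing the data, leaving 1 library in each of these groups), Ndnf was at -0.74 and Scube1 at -0.88.

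Between these genes in the ranking stood Shank1, a synaptic scaffold gene, with a log2 fold change of -0.73, and just after Ndnf came the noncoding gene Snhg11 with -0.46. Over all genes, edgeR's quasi-likelihood test called 0% of the 20694 tested in tau against control at an adjusted p under 0.05. At an unadjusted p under 0.05 there were 2059 (9.95%). DESeq2 called 55 of the 7053 genes to which it gave an adjusted p, and limma-voom called 0 of 20694. In the gene lists for tau against control, a gene without an adjusted p was counted as not called by DESeq2, so a 0 there can include genes it did not test. Both tau libraries were below both control libraries in 3 of the 7 tested genes, Ndnf, Scube1 and Reln, and above them in 0. Of all genes 41.6% were separated in either direction and 21.3% with tau lower, and nothing is read from the comparison because this contrast chose the group. Markers of the meninges, which cover layer 1, summed to 153 and 112 CPM in treated tau, beside 165 and 125 CPM in tau, against 122 CPM for the library labelled control 1 and 162 CPM for control 2. These sums overlapped between all groups, and their part in the levels of the 9 genes was not tested.

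**Figure D1:**
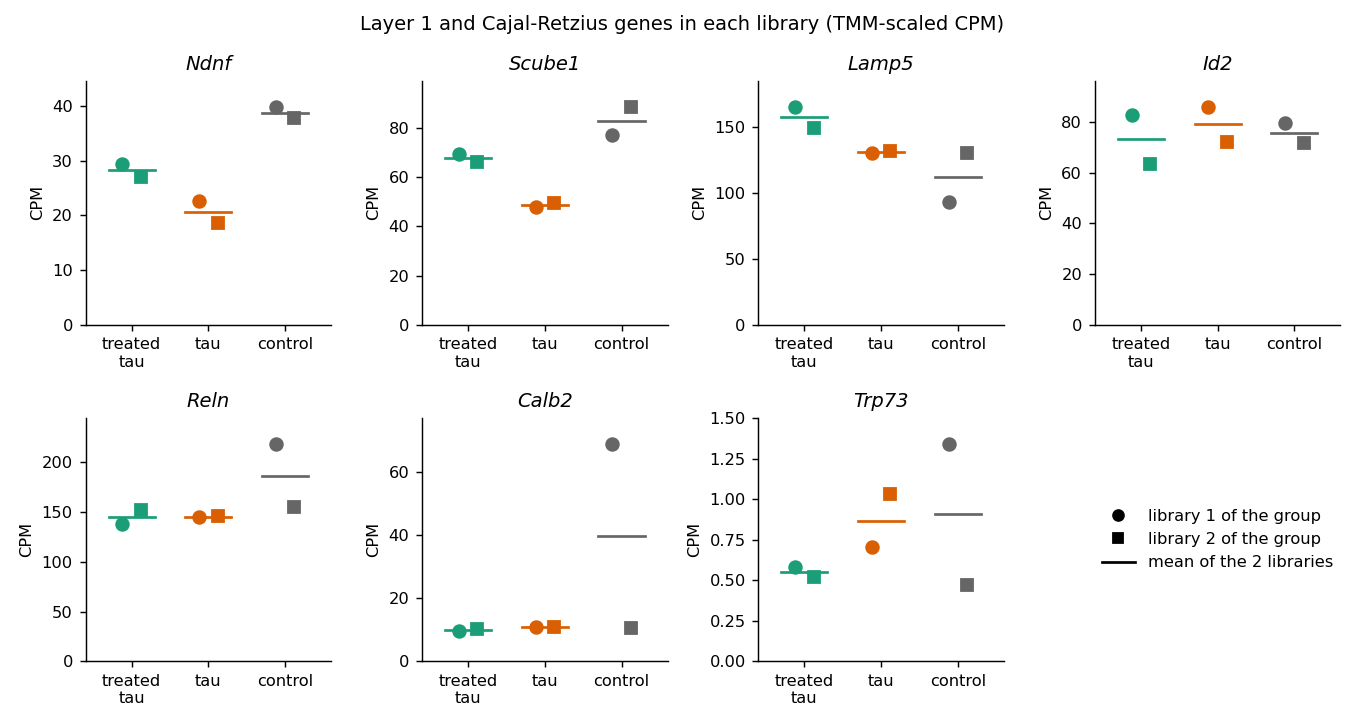
TMM-scaled CPM (vertical axes, each from 0) of the 7 tested genes in treated tau, tau and control mice; circles and squares are the libraries numbered 1 and 2 and lines the mean of both. Ndnf and Scube1 are lowest in both tau libraries and highest in both control libraries, whereas Reln and Calb2 stand out in the library labelled control 1, at 218 and 68.9 CPM.

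The other neurogliaform genes of the group did not share the order of Ndnf. Lamp5, a membrane protein of the LAMP family found in neurogliaform cells and also in upper-layer excitatory neurons (chromosome 2, 136052239 to 136069917, plus strand), had 165 and 149 CPM in treated tau, beside 129.9 and 131 CPM in tau, against 93.3 CPM for the library labelled control 1 and 129.9 CPM for control 2. Both treated tau libraries were highest, tau and control 2 were nearly level, and the library labelled control 1 was lowest. Tau against control gave a log2 fold change of 0.23 ± 0.14 (SE), which was 0.01 ± 0.10 without the library labelled control 1 and 0.49 without control 2.

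Id2, an inhibitor of basic helix-loop-helix transcription factors that many cortical cells express (chromosome 12, 25093799 to 25097140, minus strand), had 82.9 and 63.6 CPM in treated tau, beside 85.9 and 72.3 CPM in tau, against 79.7 CPM for the library labelled control 1 and 71.7 CPM for control 2. All 3 groups overlapped, and the lowest value and the second highest were both from treated tau. Tau against control gave a log2 fold change of 0.07 ± 0.14 (SE).

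Reln, the gene of reelin (chromosome 5, 21884454 to 22344702, minus strand), was close to level in 5 of the 6 libraries. It had 137 and 152 CPM in treated tau, beside 145 and 146 CPM in tau, against 218 CPM for the library labelled control 1 and 154 CPM for control 2. Control 2 stood just above the highest PS19 library, and the library labelled control 1 stood far above all of them. Tau against control gave a log2 fold change of -0.36 ± 0.14 (SE), which was -0.09 ± 0.10 without the library labelled control 1 and -0.59 without control 2. Reln overlaps 7 other annotated genes, antisense genes among them.

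Calb2 encodes calretinin, a calcium-binding protein of Cajal-Retzius cells and of part of the Vip interneurons (chromosome 8, 110137502 to 110168210, minus strand). It had 9.73 and 10.3 CPM in treated tau, beside 10.95 and 11.004 CPM in tau, against 68.9 CPM for the library labelled control 1 and 10.4 CPM for control 2. Control 2 lay between treated tau and tau, and the library labelled control 1 was 6.61 times the median of the other 5. Tau against control gave a log2 fold change of -1.85 ± 0.66 (SE), which was 0.08 ± 0.18 without the library labelled control 1 and -2.65 without control 2.

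Trp73, a member of the p53 family and a marker of Cajal-Retzius cells (chromosome 4, 154056253 to 154140208, minus strand), had few reads. There were 20 and 14 counts in treated tau and 18 in each tau library, against 34 for the library labelled control 1 and 12 for control 2, or from 0.47 to 1.34 CPM. The library labelled control 1 was highest and control 2 lowest. Tau against control gave a log2 fold change of -0.11 ± 0.54 (SE), which was 0.83 ± 0.64 without the library labelled control 1 and -0.68 without control 2, so its direction changed with the control library used. Trp73 overlaps an antisense gene on the opposite strand, and since the strand setting of the counting is not stated, reads of the pair cannot be told apart.

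Lhx1 and Lhx5, LIM homeobox transcription factors of Cajal-Retzius cells in development (chromosome 11, 84518284 to 84525535, minus strand, and chromosome 5, 120431699 to 120441223, plus strand), were at or near 0. Lhx1 had 2 counts in tau 1 and 0 in each of the other libraries. Lhx5 was at 0 in both treated tau libraries and had 0 and 4 counts in tau, against 4 for the library labelled control 1 and 2 for control 2. No difference between groups was detectable at this depth. With Trp73 near 1 CPM and Lhx1 and Lhx5 at or near 0, these transcription factors of Cajal-Retzius cells were barely represented in this tissue. Of the other transcription factors listed for these cells, Ebf2 lay between 0.23 and 1.29 CPM, Ebf3 between 0.15 and 0.90 CPM and Nhlh2 between 0.23 and 0.41 CPM. Tbr1, which is also listed for excitatory cortical neurons, lay between 67.2 and 93.0 CPM.

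Olfactory bulb markers moved with Calb2, Reln and Trp73 in the library labelled control 1. Cdhr1, a cadherin of mitral cells, had 2.78 and 2.31 CPM in treated tau, beside 4.26 and 2.41 CPM in tau, against 56.9 CPM for the library labelled control 1 and 4.16 CPM for control 2. The mitral cell transcription factor genes Eomes and Tbx21 had 326 and 80 counts there and at most 6 and 4 counts in any other library. The 9 markers of the list summed to 9.002 and 7.23 CPM in treated tau, beside 10.48 and 8.71 CPM in tau, against 215.7 CPM for the library labelled control 1 and 9.996 CPM for control 2. All 9 were detected in the library labelled control 1, and 0 to 2 were at 0 counts in each of the others. Omp, the olfactory marker protein gene, named after its values were seen, reached 67.6 CPM for the library labelled control 1 and stayed between 0.172 and 0.634 CPM elsewhere.

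Gad1, the GABA-synthesizing enzyme gene of these interneurons and of most olfactory bulb neurons, had 284 and 290.3 CPM in treated tau, beside 292 and 316 CPM in tau, against 449 CPM for the library labelled control 1 and 267 CPM for control 2. The library labelled control 1 was highest of the 6 in Gad1 and in 4 of the 7 tested layer 1 and Cajal-Retzius genes (Ndnf, Reln, Trp73 and Calb2), beside 18.4% of all genes. This count is a description. Ndnf was chosen for low values in tau, which favours a control library as its highest, and its control libraries were nearly level (39.8 and 37.8 CPM). Trp73 had only 34 counts there. Without the library labelled control 1, tau and control differed in Reln and Calb2 by less than the SE. Ndnf then had a log2 fold change of -0.86, beside -0.90 with all libraries, and Scube1 one of -0.86, beside -0.77.

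**Figure D2:**
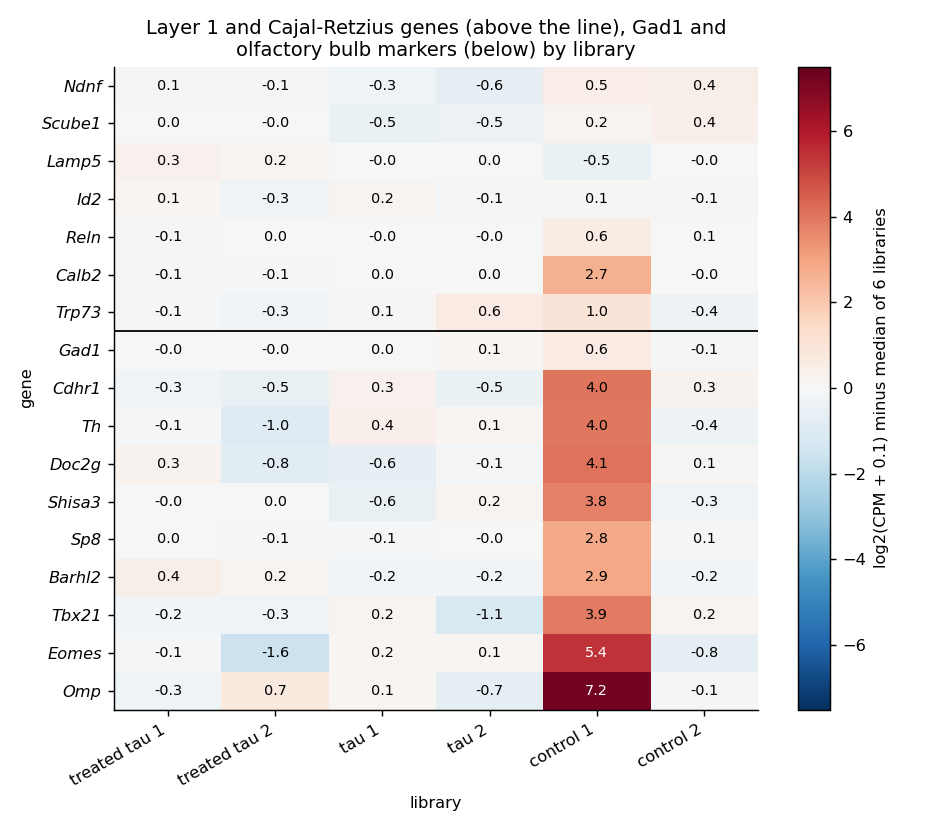
Colour and numbers give log2(CPM + 0.1) minus the median of the 6 libraries (columns) for the 7 tested layer 1 and Cajal-Retzius genes above the line and for Gad1 and the 9 olfactory bulb markers below it (rows). The library labelled control 1 is 2.68 above the median in Calb2, 0.551 in Reln and 7.23 in Omp, while Scube1 lies between -0.503 and 0.383 in all libraries.

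**Figure D3:**
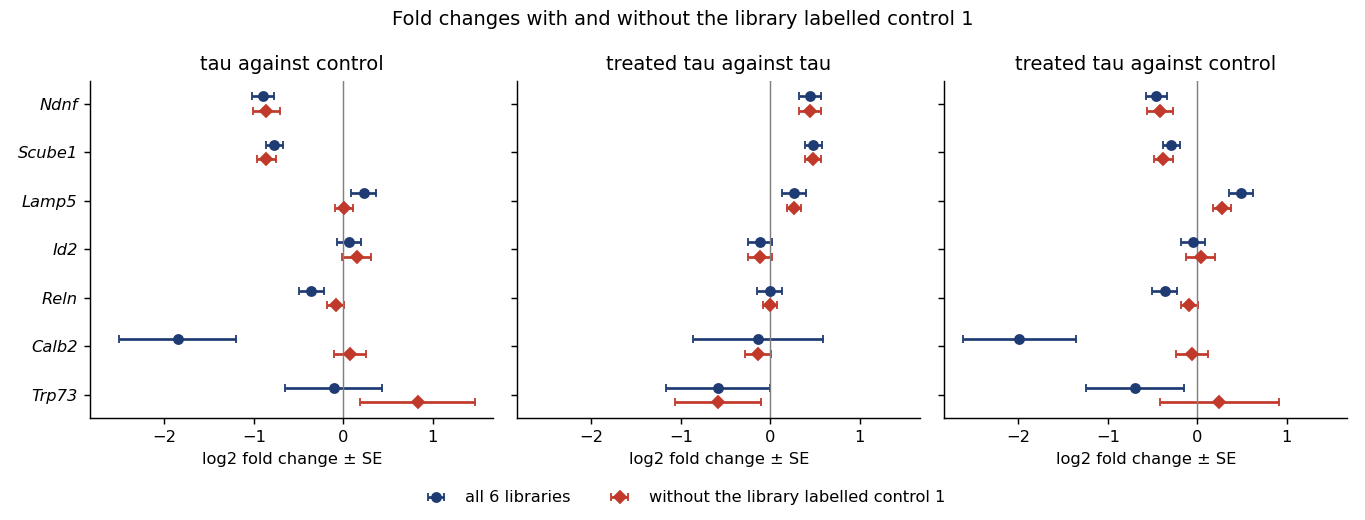
Log2 fold change (horizontal axes) of the 7 tested genes with bars of 1 SE in 3 comparisons, from all 6 libraries (circles) and without the library labelled control 1 (diamonds). Leaving it out moves Calb2 for tau against control to 0.08 and Reln to -0.09, while Ndnf and Scube1 are both at -0.86.

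Levels per length placed Lamp5 and Id2 highest. Lamp5 averaged 53.5 CPM per kb of exon in treated tau, 44.5 in tau and 38.1 in control, and Id2 averaged 30.03, 32.4 and 31.1 CPM per kb in the same groups. Calb2, Scube1 and Reln came next with 11.6, 6.76 and 6.69 CPM per kb over the 6 libraries, and their group means overlapped, from 5.73 to 22.8 for Calb2, 4.95 to 8.43 for Scube1 and 6.09 to 7.85 for Reln. Without the library labelled control 1, Scube1 had 6.54, Reln 6.19 and Calb2 6.01 CPM per kb, so the rank of Calb2 above both rested on that library. Over the 6 libraries Ndnf had 2.89 and Trp73 0.14 CPM per kb, each below the group means of the genes before it.

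Treated tau was set against tau for the question of how PS19 mice given WDR5-0103 differed from those given vehicle. Scube1 was higher in both treated tau libraries, with means of 67.8 ± 2.54 CPM in treated tau and 48.7 ± 1.19 CPM in tau (SD, n = 2 per group) and a log2 fold change of 0.48 ± 0.10 (SE). It alone of the 7 tested genes passed, with an adjusted p of 0.0242 in edgeR's quasi-likelihood test, which called 3.76% of all genes (3.09% higher and 0.677% lower). All 9 genes are protein-coding, and protein-coding genes fitted alone gave 45 calls of 14739. The tau libraries in this comparison are those whose low values chose Scube1, so this p is not independent of the choice. DESeq2 (adjusted p = 0.00172) and limma-voom (0.0297) also called Scube1. The call was lost when either tau library or either treated tau library was left out (adjusted p from 0.103 to 0.204 in edgeR, with log2 fold changes from 0.45 to 0.52), with no filter on low counts (0.051) and with protein-coding genes fitted alone (0.112).

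Ndnf had means of 28.2 ± 1.68 CPM in treated tau and 20.6 ± 2.74 CPM in tau (SD, n = 2 per group), with a log2 fold change of 0.44 ± 0.12 (SE). Without tau 2 it was 0.33. With all libraries its adjusted p of 0.107 in edgeR did not pass. At an unadjusted p under 0.05, Ndnf and Scube1 made 2 of the 7 genes, beside 12% of all. Both were chosen for low values in the same tau libraries, so nothing is read from counts that include them. Lamp5 gave 0.27 ± 0.13 (adjusted p = 0.506), and Ndnf, Scube1 and Lamp5 were above tau in both treated tau libraries, as were 21.2% of all genes. Trp73 (-0.59 ± 0.58) and Calb2 (-0.14 ± 0.73) were below tau in both, as were 20.1% of all genes, so that 5 of 7 did not overlap beside 41.3%. Id2 (-0.11 ± 0.14) and Reln (-0.0064 ± 0.14) overlapped, and the adjusted p of these last 4 ranged from 0.806 to 0.997.

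The position of treated tau between tau and control was set beside that of other genes low in tau. Ndnf and Scube1 both had tau below treated tau below control with no overlap, an order that 1.91% of all genes showed. Both were chosen for being lower in tau than in control, so part of this order was set in advance. That choice was also stricter than the rules for the sets of genes below, so nothing is read from these shares. Of the 4401 genes with both tau libraries below both control libraries, 39.5% had both treated tau libraries above both tau libraries and 9% had the full order. Of the 1167 genes lower in tau than in control at an unadjusted p under 0.05, 52.7% had both treated tau libraries above both tau libraries, 22.5% had the full order and 4.03% were called higher in treated tau than in tau.

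A contrast that the choice of genes does not fix sets treated tau against the mean of tau and control. The log2 fold change was -0.0067 ± 0.10 (SE) for Ndnf (adjusted p = 0.986 in edgeR) and 0.10 ± 0.08 for Scube1 (adjusted p = 0.685). Here edgeR called 0 of the 7 genes, beside 4.54% of all (3.7% higher and 0.841% lower). With protein-coding genes fitted alone it called 58 of 14739. At an unadjusted p under 0.05 there was 1 of 7, beside 13.4%. DESeq2 called 1, beside 953 of all 20694 genes, and limma-voom 0, beside 907. That gene was Lamp5, with a log2 fold change of 0.38 ± 0.11 and an adjusted p of 0.132 in edgeR. It passed with DESeq2 (0.0393) and without control 2 (0.00332), and its adjusted p over all alternatives reached 0.525. Calb2, at -1.06 ± 0.60 (adjusted p = 0.501), passed without control 2 (6.15e-05), with the library labelled control 1 as the lone control, and was at -0.097 without that library (0.835).

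Treated tau against control shares the control libraries with the contrast of choice. Ndnf had means of 28.2 ± 1.68 CPM in treated tau and 38.8 ± 1.41 CPM in control (SD, n = 2 per group), with a log2 fold change of -0.46 ± 0.12 (SE) and an adjusted p of 0.0622 in edgeR; over the alternatives its adjusted p ranged from 0.044 with DESeq2 to 0.37. Scube1 gave -0.29 ± 0.09 (adjusted p = 0.156). edgeR called 0 of the 7 genes, beside 4.22% of all (3.32% higher and 0.899% lower). With protein-coding genes fitted alone it called 40 of 14739. At an unadjusted p under 0.05 there were 5 of 7, beside 16.3%. DESeq2 called 2, Ndnf and Lamp5, beside 889 of all 20694 genes, and limma-voom 0, beside 791. Ndnf, Scube1, Reln and Calb2 were below control without overlap, as were 23.3% of all genes, and Lamp5 was above, as were 23%, beside 46.3% in either direction.

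Lamp5 had means of 157 ± 11.1 CPM in treated tau and 112 ± 25.9 CPM in control (SD, n = 2 per group), with a log2 fold change of 0.49 ± 0.13 (SE) and an adjusted p of 0.0855 in edgeR. It passed with DESeq2 (0.0133) and without control 2 (0.00298), and was at 0.28 ± 0.10 without the library labelled control 1 (0.238). Calb2 (-1.99 ± 0.63, adjusted p = 0.144) and Reln (-0.37 ± 0.14, adjusted p = 0.224) also turned on the control library. Without the library labelled control 1 they were at -0.06 ± 0.18 (adjusted p = 0.92) and -0.09 ± 0.10 (0.741), and without control 2, leaving that library as the lone control, both passed in edgeR (4.54e-06 and 0.00792). Trp73 (-0.70 ± 0.55, adjusted p = 0.586) and Id2 (-0.05 ± 0.14, adjusted p = 0.908) overlapped control.

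The wider list of layer 1 neurogliaform genes was divided in tau against control. Of its 10 tested genes outside the group, 5 had positive and 5 negative log2 fold changes, with a median of -0.0038 beside -0.0030 for all genes. None passed in any comparison with edgeR, DESeq2 or limma-voom, with 2 of 10 at an unadjusted p under 0.05 for tau against control, beside 9.95% of all genes. Npy, a neuropeptide of neurogliaform cells, had 67.6 ± 2.53 CPM in treated tau, 69.6 ± 18.0 CPM in tau and 59.6 ± 0.271 CPM in control (SD, n = 2 per group). Kit, a receptor tyrosine kinase of the same cells, had 36.4 ± 2.12, 35.7 ± 1.48 and 30.2 ± 0.217 CPM in those groups. For Kit, both PS19 groups lay above control without overlap, as did 20.3% of all genes for tau and 23% for treated tau. For Npy, treated tau lay above control without overlap. Its tau libraries, at 56.9 and 82.4 CPM, lay on either side of control, at 59.4 and 59.8 CPM. Cxcl14, a chemokine of superficial interneurons, had 48.8 ± 0.764, 48.6 ± 1.03 and 48.3 ± 4.30 CPM. For tau against control, the log2 fold change of Npy was 0.21 with all libraries and -0.066 without tau 2, and that of Cxcl14 was 0.0091 and turned to -0.076 without the library labelled control 1. That of Kit was 0.25 with all libraries, 0.29 without tau 2 and 0.24 without the library labelled control 1.

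**Figure D4:**
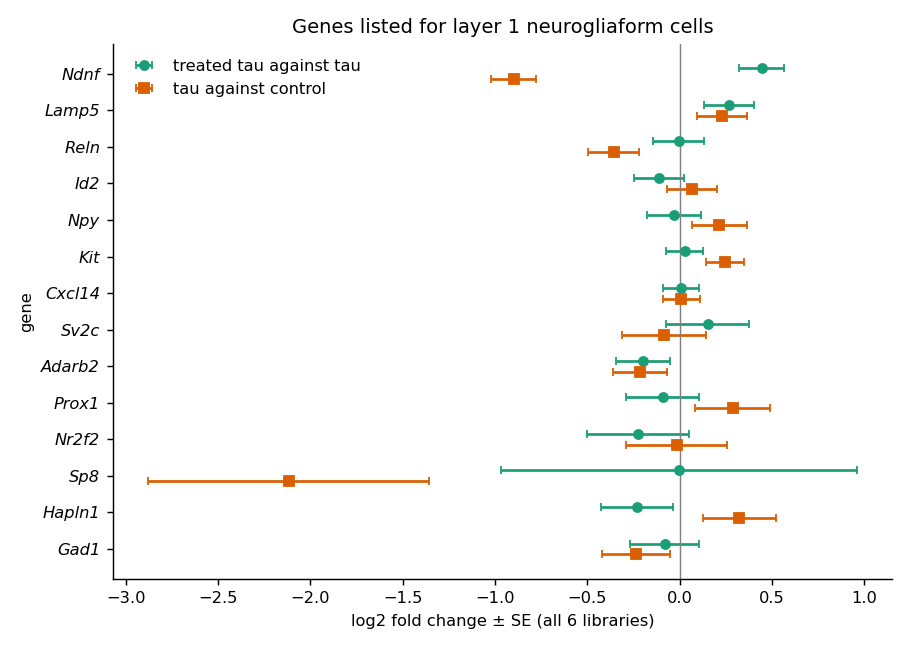
Log2 fold changes with bars of 1 SE (horizontal axis) for the 14 genes listed for layer 1 neurogliaform cells (rows), for treated tau against tau and tau against control, over all 6 libraries. Ndnf is at 0.44 and -0.90, while Npy, Kit and Cxcl14 lie between -0.03 and 0.25 in both comparisons; Sp8, at -2.12 for tau against control, is also an olfactory bulb marker.

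Markers of the main interneuron classes were read beside Ndnf. Sst, the neuropeptide of Martinotti cells, had 102 ± 11.5 CPM in treated tau, 116 ± 20.3 CPM in tau and 85.4 ± 10.6 CPM in control (SD, n = 2 per group). Vip, which marks interneurons that inhibit other interneurons, had 47.3 ± 4.81, 51.6 ± 0.462 and 40.4 ± 4.42 CPM in those groups, and Pvalb, of fast-spiking basket cells, had 46.0 ± 1.24, 40.9 ± 9.06 and 36.5 ± 7.08 CPM. Tau against control gave log2 fold changes of 0.44 for Sst, 0.35 for Vip and 0.15 for Pvalb. These were 0.26, 0.35 and -0.078 without tau 2, and 0.32, 0.25 and -0.029 without the library labelled control 1, so the direction for Pvalb changed without either library. Of the 20 genes of the interneuron list, 11 had positive log2 fold changes in tau against control (median 0.04); edgeR, DESeq2 and limma-voom called 0, with 5 of 20 at an unadjusted p under 0.05, beside 9.95% of all genes.

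Of the 5 tested Cajal-Retzius genes outside the group, 4 had negative log2 fold changes in tau against control (median -0.10) and 0 passed with any of the 3 tools, also at an unadjusted p under 0.05. The whole list of 12 genes summed to 299.7 and 310.1 CPM in treated tau, beside 277 and 292 CPM in tau, against 429 CPM for the library labelled control 1 and 321 CPM for control 2. Reln held the greatest part of that sum in each library, and both were highest in the library labelled control 1.

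Receptors and adaptor of reelin overlapped between tau and control. Lrp8, a reelin receptor, had 86.0 ± 11.7 CPM in treated tau, 79.6 ± 14.5 CPM in tau and 88.6 ± 2.61 CPM in control (SD, n = 2 per group). Vldlr, the other receptor, had 116 ± 6.53, 114 ± 2.50 and 108 ± 7.74 CPM, and Dab1, the adaptor, had 91.7 ± 0.886, 84.8 ± 7.70 and 83.2 ± 8.67 CPM in those groups. Of the 20 tested pathway genes other than Reln, 12 had positive log2 fold changes in tau against control (median 0.05), 13 in treated tau against tau (median 0.05) and 17 in treated tau against control (median 0.12). edgeR called 0 of them in every comparison, with 5, 2 and 3 of 20 at an unadjusted p under 0.05 in these 3, beside 9.95%, 12% and 16.3% of all genes. DESeq2 and limma-voom each called 1 in treated tau against tau, Map1b, a microtubule-associated protein.

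Paralogs of Scube1 were less abundant. Scube3 had 7.24 ± 0.939 CPM in treated tau, 6.37 ± 0.173 CPM in tau and 7.29 ± 0.772 CPM in control (SD, n = 2 per group), with both tau libraries below all others, and log2 fold changes of 0.17 ± 0.19 (SE) for treated tau against tau and -0.19 ± 0.19 for tau against control. Scube2, known for helping release hedgehog ligands from cells, had 1.06 ± 0.0735, 1.28 ± 0.0472 and 1.38 ± 1.06 CPM in treated tau, tau and control, with 2.13 CPM for the library labelled control 1 and 0.627 CPM for control 2. Of the 15 tested genes of the SCUBE and hedgehog list other than Scube1, 12 had negative log2 fold changes in tau against control (median -0.16) and 12 in treated tau against control (median -0.13). None passed with edgeR, DESeq2 or limma-voom, and 1 of 15 had an unadjusted p under 0.05 for tau against control, beside 9.95% of all genes.

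Relatives of Id2 and Calb2 did not share 1 pattern. Id4 had 57.4 ± 4.10 CPM in treated tau, 67.8 ± 8.15 CPM in tau and 48.8 ± 8.53 CPM in control (SD, n = 2 per group). Tau was above control without overlap for Id4, as for 20.3% of all genes. Id1 lay between 5.07 and 6.46 CPM and Id3 between 12.5 and 14.99 CPM over all libraries. Of the 19 tested genes of the Id and BMP list other than Id2, 12 had negative log2 fold changes in tau against control (median -0.16), with 0 called by any of the 3 tools and 5 of 19 at an unadjusted p under 0.05, beside 9.95% of all genes. Calb1, the calbindin of many upper-layer neurons, had 139 ± 21.7 CPM in treated tau, 150.4 ± 21.4 CPM in tau and 136 ± 60.4 CPM in control. Within control the library labelled control 1 was lowest of all for Calb1, at 92.9 CPM, and control 2 highest, at 178 CPM, opposite to Calb2. All 8 tested EF-hand genes other than Calb2 had positive log2 fold changes in tau against control (median 0.15), with 0 called by any tool and 2 of 8 at an unadjusted p under 0.05, beside 9.95% of all genes. Without the library labelled control 1, Calb1 was at -0.24 ± 0.15 (SE) and Pvalb at -0.029 ± 0.17. The direction common to all 8 therefore rested on that library.

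Among relatives of Lamp5, Lamp3, a lysosomal membrane protein, passed in edgeR with an adjusted p of 0.0334 for treated tau against control, where DESeq2 and limma-voom did not call it. It had 2.32 ± 0.113 CPM in treated tau, 1.118 ± 0.364 CPM in tau and 0.748 ± 0.170 CPM in control (SD, n = 2 per group), with a log2 fold change of 1.63 ± 0.36 (SE). For treated tau against the mean of tau and control, edgeR and limma-voom called Lamp3 and DESeq2 did not. All 4 tested LAMP genes other than Lamp5 had positive log2 fold changes in tau against control (median 0.30). Of these, 2 had an unadjusted p under 0.05 in edgeR, beside 9.95% of all genes. Of the 7 tested p53 family and target genes other than Trp73, 4 had negative ones (median -0.05), and the 4 tested LIM homeobox genes outside the group were divided 2 and 2; edgeR, DESeq2 and limma-voom called 0 in these 3 lists for tau against control.

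Ndnf and Scube1 were alike over the libraries, with a Pearson r of 0.932 between their log2 CPM over 6 libraries and 0.953 over the 5 without the library labelled control 1. These points share their libraries and the contrast by which both genes were chosen. Reln and Calb2 had r = 0.972 over 6 libraries and 0.317 without the library labelled control 1, so that their likeness rested on it. The 5 named genes most like Ndnf among 4652 were Snhg11 (r = 0.995), Tex9 (0.976), Gpr4 (0.972), Strada (0.969) and Mex3d (0.967), over the same 6 libraries. Those most like Scube1 were Pcdhgb4 (r = 0.996), Asap3 (0.984), Nrxn2 (0.977), Cacna1g (0.977) and Scand1 (0.973).

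Nrxn2, a presynaptic adhesion gene, had 217 and 218 CPM in treated tau, beside 164 and 174 CPM in tau, against 223 CPM for the library labelled control 1 and 240.4 CPM for control 2, the same order as Scube1. The 5 genes most like Reln were Lgr5 (r = 0.997), Isoc1 (0.996), Hey2 (0.986), Slco5a1 (0.981) and Ptpro (0.98). Ptpro, a receptor tyrosine phosphatase, had 18.0 and 26.6 CPM in treated tau, beside 20.9 and 23.3 CPM in tau, against 81.3 CPM for the library labelled control 1 and 34.7 CPM for control 2. Each of these 5 was highest in the library labelled control 1, whereas the genes most like Ndnf and Scube1 were lowest in the tau libraries. Picking the highest r among 4652 genes over the same 6 libraries set these likenesses in advance, so nothing is read from them.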

How the data were processed

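Per the labels' protocols, libraries were made with a stranded total RNA kit with ribosomal depletion, trimmed with Cutadapt and aligned by TopHat2 against mouse RefSeq mRNAs. The submitters' processing notes add SAMtools, featureCounts, edgeR and mm10, with no versions. The authors deposited 1 table of raw whole-number counts per gene symbol for each library. Control and tau files have 54429 symbols each and treated tau files 54134; the 53640 in common were used, and the others took between 0.333% and 0.352% of counts. File headers number 4 libraries differently from the titles, which were followed.

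Lowly counted genes were removed by filterByExpr (minimum count 10), TMM scaling was applied, and edgeR 4.0.16 (R 4.3.3) fitted all 6 libraries by quasi-likelihood (two-sided, 3 residual degrees of freedom; Benjamini-Hochberg over 20694 genes; called at an adjusted p under 0.05). The fit was also tested on simulated data. Alternatives were DESeq2 1.42.0, limma-voom (limma 3.58.1), RLE scaling, other filters, a replicate block and leaving out libraries. Genes named beside the 9 were receptors, paralogs and class markers set by a written rule, and list members called in a comparison. For Ndnf, Scube1 and Reln, the 5 genes of highest Pearson r were also named (mean log2 CPM 1 or more, SD 0.2 or more). Slc17a7, Shank1, Sp8, Map1b, Tbr1, Ebf2, Ebf3 and Nhlh2 were named after their values were seen. The 9 genes (the members) and the lists were chosen with earlier results of these data known. Positions and exon lengths are from GENCODE M21 (mm10); at most 4.12% of the 50-mers of any of the 9 genes occurred in another gene.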

Additional observations from a re-analysis of the deposited data

How the results depend on the processing

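With 2 libraries per group each call rests on few samples, and depth limits Trp73, Lhx1 and Lhx5. For tau against control, where edgeR called 0 genes, DESeq2 called 55 and the fit without control 1 and tau 2 together, chosen after seeing the data, 130; leaving out 1 library gave 0 to 98, with 98 without control 2 and 9 without tau 2. Leaving out 1 library gave 354 to 840 calls for treated tau against tau (779 with all), 495 to 817 for treated tau against control (873) and 596 to 1061 for treated tau against the mean of tau and control (939). The low counts came without a tau library (354 without tau 1, 504 without tau 2) or without a treated tau library (429 and 421 in the first of these comparisons, 507 and 495 in the second, 596 and 608 in the third). Protein-coding genes fitted alone, also chosen after seeing the data, gave 45, 40 and 58 calls of 14739 in these comparisons. The cause was not tested. The shares set beside the 9 genes, all protein-coding, are over all 20694 genes.

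Log2 fold changes near 0 changed sign. For treated tau against tau, Reln was at 0.0094 with no filter and 0.0031 with protein-coding genes alone, and ranged from -0.078 to 0.071 over libraries left out, while Id2 ranged from -0.31 to 0.068. For treated tau against control, without control 1 and tau 2 together, Trp73 was at 0.25 and Id2 at 0.037; over libraries left out Trp73 ranged from -1.26 to 0.25 and Id2 from -0.24 to 0.14. For treated tau against the mean of tau and control, Ndnf was at 0.0095 with no filter and ranged from -0.065 to 0.073 over libraries left out, and Id2 from -0.28 to 0.10. Scube1 passed against control without control 1 and tau 2 together (-0.38, adjusted p = 0.0498 in edgeR).

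The replicate block changed no call of the 7 tested genes and gave 0 calls for tau against control; treated tau had 708 against tau, 796 against control and 886 against the mean of both. Deviations of same-numbered libraries had correlations between -0.008 and 0.073, so the numbers were not taken as pairs.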
